A study of Caenorhabditis elegans with 54 samples.

Results

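UV-treated daf-2 larvae were compared with untreated daf-2 larvae 24 h after both had been taken out of dauer on day 1, by sequencing the RNA of whole worms. The comparison used 3 UV-treated and 3 untreated libraries out of 54 in the series, and every gene with at least 10 counts in at least 3 of these 6 libraries, which left 13113 of the 19909 genes in the table. The other 6796 genes were too low to test. All worms carried daf-2(e1370), a temperature-sensitive mutation of the insulin/IGF-1 receptor gene on the N2 background that makes larvae enter dauer at the restrictive temperature, so UV-treated and untreated larvae shared this mutation and the same entry into dauer. The treated larvae received broadband UVB on dauer day 1 and were then placed on food at the lower temperature to induce exit, whereas the untreated larvae received no UV before the same exit. The dose given to the larvae of these libraries was not given in the sources used here. The 3 libraries of each group are described as biological replicates, and each came from many worms of undefined position in the exit programme. Estimated counts per library were 7611701 to 9473996 in UV-treated larvae and 6959028 to 8264999 in untreated larvae.

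Dauer is an arrested, stress-resistant larval stage that forms in place of the third larval stage under crowding, heat or hunger. On return to food the larva reopens its mouth and gut, resumes feeding, gives up its dauer-specific cuticle and grows towards the next molt, which needs waves of new matrix, collagen and protease genes. UVB makes bulky lesions that join neighbouring pyrimidines in DNA. Nucleotide excision repair removes them in a branch that scans the whole genome, for which XPC-1 recognizes the damage, and a branch that starts from stalled RNA polymerase II, for which CSB-1 is needed, and XPA-1 serves both branches.

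UV was followed by a difference in 1530 of the 13113 genes, or 11.7%, at an adjusted p under 0.05 in the quasi-likelihood test of edgeR, adjusted over all genes by the Benjamini-Hochberg method, which is behind each adjusted p below. Of these, 726 genes (5.54%) were higher and 804 genes (6.13%) were lower in UV-treated than in untreated larvae. Most differences were small. The median absolute log2 difference of the 1530 genes was 0.37, 1007 of them lay under 0.5, and 130 reached 1, with 50 higher and 80 lower. All UV-treated libraries lay above all untreated ones for 723 of the 726 higher genes, against 17.3% of all genes tested, and below them for 785 of the 804 lower genes, against 12.8%. The calls were made from these same libraries, so this separation largely follows from the calls and is no separate evidence for them. The replicates were close, with a biological coefficient of variation of 5.83%. The median log2 difference over all genes was -0.0022, which TMM scaling places near zero, so differences are relative to the bulk of genes and a shift of the whole scale would not be seen. The number of genes past the threshold was sensitive to single libraries. It was 960 without UV-treated replicate 1, 930 without UV-treated replicate 2 and 970 without untreated replicate 1, and 1158 to 1286 when any of the other 3 was left out.

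**Figure D1:**
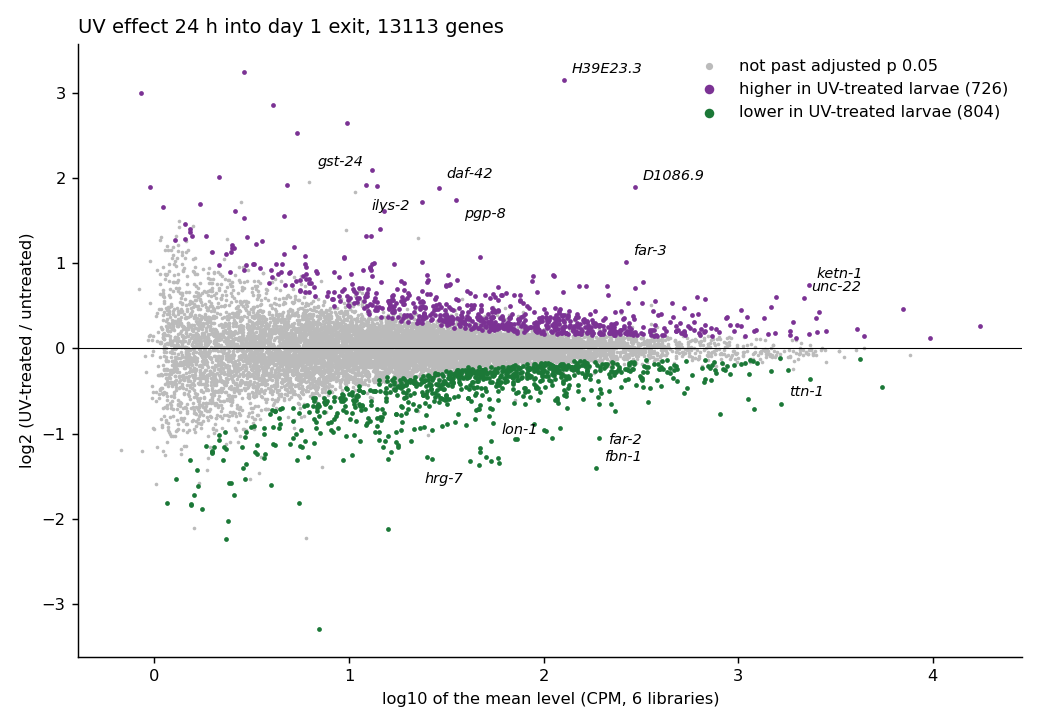
Difference between UV-treated and untreated larvae 24 h into day 1 exit (y, log2) against the mean level over the 6 libraries (x, log10 of CPM), 1 point per gene. The 726 purple points are genes higher and the 804 green points genes lower in UV-treated larvae at an adjusted p under 0.05, grey points did not pass, and most coloured points lie close to the zero line.

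Levels are given as CPM, the usual depth-normalised count, in which a gene's count is taken relative to its library's total after TMM scaling over all 54 libraries, and log2 differences are UV-treated minus untreated, with their standard error. A level in whole worms cannot tell fewer cells of a type from less RNA per cell. Genes that mark the main tissues were all detected. The intestinal genes act-5 and ifb-2 and the pharyngeal muscle myosin myo-2 had log2 differences of -0.02, 0.01 and -0.03. The neuronal genes rab-3 and unc-31 had 0.07 and -0.08, and the germline helicase glh-1 had -0.13, none of them past the threshold. The body-wall muscle myosins unc-54 and myo-3 rose by 0.36 and 0.40, the germ granule gene pgl-1 fell by 0.27 and the hypodermal collagen dpy-7 fell by 1.16, while the collagen rol-6 had 0.27 with an adjusted p of 0.39. In a principal component analysis of the 15 day 1 libraries, the first component carried 68.0% of the variance and ordered the libraries by hours of exit. At 24 h it stood at 60.8 to 61.4 in UV-treated larvae and at 67.3 to 75.2 in untreated larvae, whose distance from the 0 h libraries, at -64.8 to -62.6, was larger. On the second component, with 9.0% of the variance, UV-treated larvae were at 1.7 to 5.9 and untreated larvae at -13.0 to -9.7.

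The larger rises included genes that are high in dauer larvae. H39E23.3, a gene without a three-letter name that was chosen after its values were seen, stood at 224, 207 and 257 CPM in UV-treated larvae and at 25.1, 23.2 and 27.5 CPM in untreated larvae. The groups were far apart, with an 8.92-fold difference (log2 3.16 ± 0.09, adjusted p = 2.8e-09). Its level at 0 h, in larvae still in dauer on day 1, was 340 ± 63 CPM (SD, n = 3). D1086.9, its neighbour on the same strand of chromosome V and also chosen after its values were seen, had 497, 395 and 508 CPM in UV-treated larvae and 128, 106 and 135 CPM in untreated larvae (log2 1.90 ± 0.10, adjusted p = 1.3e-06). daf-42, a gene needed for dauer development, had 43.1, 49.99 and 44.95 CPM in UV-treated larvae, against 11.5, 10.2 and 15.3 CPM in untreated larvae and 233 ± 19 CPM at 0 h (SD, n = 3). Its log2 difference was 1.88 ± 0.13 (adjusted p = 4.4e-06). For all these genes every UV-treated library was above every untreated one, which the rule that named daf-42 required. For H39E23.3 and daf-42 both groups were at or below the level of dauer larvae.

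The list of dauer-state genes as a whole did not go one way, but not all of its members are high in dauer. Of 22 members tested, 6 were higher, 6 were lower and 10 did not pass, with a median log2 of 0.12. The superoxide dismutase sod-3 rose by 0.63, the trehalose synthase tps-1 by 0.22 and the desiccation protein gene lea-1 by 0.24. The dauer or aging overexpression gene dao-2 fell by 1.09, the insulin-like peptide ins-18 by 0.49, the steroid hormone synthesis genes daf-36 by 0.96 and daf-9 by 0.22. In larvae that left dauer on day 4 without UV, sod-3, tps-1 and lea-1 were lower at 24 h than at 0 h. There dao-2 was higher, with a mean of 5.58 CPM at 0 h and 323 CPM at 24 h, and ins-18 did not pass the threshold. The counts of this list therefore cannot tell how genes high in dauer moved with UV. daf-2 itself, which the mutation leaves transcribed, had 432, 431 and 421 CPM in UV-treated larvae and 404, 445 and 409 CPM in untreated larvae, an overlap with a log2 difference of 0.00 (adjusted p = 0.96). Leaving out untreated replicate 1 left 2 of the 6 higher members past the threshold, and counts of 3 in a direction were met without 5 of the 6 libraries.

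Some detoxification genes were among the larger rises. gst-24, a glutathione S-transferase, had 22.7, 17.8 and 23.7 CPM in UV-treated larvae and 5.75, 4.23 and 4.54 CPM in untreated larvae, a 4.29-fold rise (log2 2.10 ± 0.16, adjusted p = 1.4e-05). The ABC transporter gene pgp-8 had 58.8, 48.0 and 58.9 CPM in UV-treated larvae and 17.7, 15.4 and 15.0 CPM in untreated larvae (log2 1.75 ± 0.10, adjusted p = 1.6e-06). Its neighbour on the X chromosome, pgp-7, rose by 1.33 ± 0.12. These are P-glycoproteins, membrane pumps that export foreign compounds from cells. Over this family, listed after the values were seen, 6 of 14 genes were higher (pgp-4, pgp-5, pgp-6, pgp-7, pgp-8 and pgp-12) and 2 were lower (pgp-1 and pgp-14), and the median of the 14 was 0.02. Their summed level was 1475, 1468 and 1450 CPM in UV-treated larvae and 1290, 1314 and 1269 CPM in untreated larvae. numr-1, a nuclear gene induced by heavy metals, had 57.7, 60.5 and 73.9 CPM in UV-treated larvae and 28.97, 30.4 and 29.9 CPM in untreated larvae (log2 1.08 ± 0.10). In none of the single genes given here did the groups overlap, which the rule that named gst-24, pgp-8, pgp-7 and numr-1 required.

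The list of oxidative stress genes and SKN-1 targets, SKN-1 being the worm's counterpart of NRF2, had 8 of 26 members higher and 0 lower, with a median log2 of 0.10, beside 5.54% and 6.13% of all genes. They were gst-4 (0.67), sod-3 (0.63), gst-10 (0.57), the catalases ctl-3 (0.56) and ctl-2 (0.22), the thioredoxin reductase trxr-2 (0.37), the autophagy receptor sqst-1 (0.26) and the glutathione peroxidase gpx-2 (0.21). The count was 5 without UV-treated replicate 2 and 5 without untreated replicate 2. Glutathione S-transferases divided more evenly, with 7 higher and 5 lower among 39, and the omega-class gene gsto-1 fell by 1.602. Among UDP-glucuronosyltransferases, which attach sugars to foreign compounds, 9 of 60 were higher, up to 0.73 for ugt-24, and 6 were lower. Without UV-treated replicate 1 the 9 became 5, and without UV-treated replicate 3 the 6 became 3. Of 59 cytochrome P450 genes, 4 were higher and 3 lower, near the share of all genes. Of the 12 small heat shock genes 2 were higher, hsp-43 by 0.37 and hsp-17 by 0.21, and 1 was left without UV-treated replicate 2 or 3 or untreated replicate 1.

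Effectors of defence were also found among the rises. ilys-2, an invertebrate-type lysozyme that cuts bacterial cell walls, had 37.6, 30.9 and 40.9 CPM in UV-treated larvae and 10.9, 11.9 and 9.78 CPM in untreated larvae (log2 1.72 ± 0.12, adjusted p = 7.4e-06). The peptide genes fipr-22 and fipr-26 rose by 0.99 ± 0.14 and 0.93 ± 0.16, the lectin gene clec-78 by 1.02 ± 0.11. Of 54 immune effectors, 9 were higher and 4 lower, and the 4 became 2 without UV-treated replicate 1. Other lysozyme and saposin genes went down, with 11 of 38 lower and 2 higher, among them spp-17 at -1.30, ilys-5 at -0.87 and lys-7 at -0.56, and the 11 became 7 without UV-treated replicate 1, UV-treated replicate 2 or untreated replicate 2. C-type lectins had 13 of 91 members lower and 4 higher. The 13 became 8 without UV-treated replicate 1 or untreated replicate 1, and the 4 became 2 without UV-treated replicate 1 or untreated replicate 2. The family of pals genes of the intracellular pathogen response had 3 of 42 higher (7.14%, near the 5.54% of all genes), by 0.30 to 0.42. The 3 became 1 when any library but untreated replicate 2 was left out, and pals-17 and pals-38 each missed the threshold without any 1 of the 6 libraries.

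**Figure D2:**
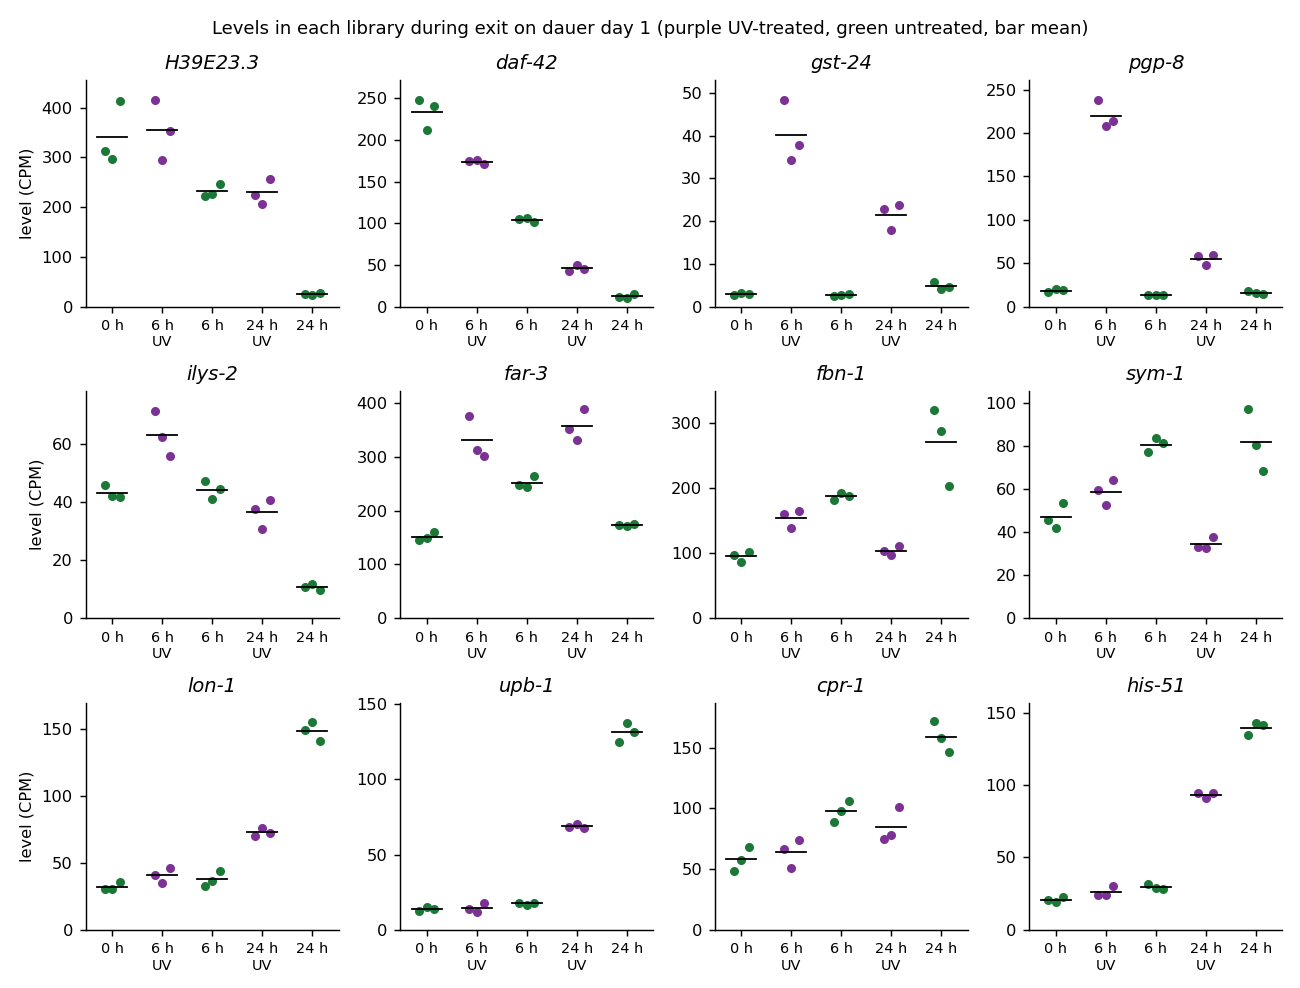
Level in CPM (y) of 12 genes in single libraries of day 1 exit, at 0 h, at 6 h and at 24 h (x), with UV-treated larvae in purple left of untreated larvae in green and the bar at the mean of 3. At 24 h the purple points lie above the green ones for H39E23.3, daf-42, gst-24, pgp-8, ilys-2 and far-3, and below them for fbn-1, sym-1, lon-1, upb-1, cpr-1 and his-51.

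Some DNA repair genes passed the threshold at this hour, in either direction. csb-1, the transcription-coupled repair gene, had 18.9, 18.5 and 18.7 CPM in UV-treated larvae and 12.7, 12.5 and 14.6 CPM in untreated larvae, a rise of 0.47 ± 0.11 on the log2 scale (adjusted p = 0.014) without overlap. It missed the threshold without UV-treated replicate 2 and without untreated replicate 1. uvs-1 had 25.97, 28.1 and 27.5 CPM in UV-treated larvae and 19.4, 21.4 and 16.4 CPM in untreated larvae (log2 0.49 ± 0.10, adjusted p = 0.008). xpc-1, the global genome repair gene, had 85.0, 88.8 and 89.5 CPM in UV-treated larvae and 95.8, 99.9 and 86.5 CPM in untreated larvae, which overlapped (log2 -0.12 ± 0.06, adjusted p = 0.21). xpa-1, shared by both branches, had 19.0, 18.1 and 14.5 CPM in UV-treated larvae and 18.7, 15.8 and 17.1 CPM in untreated larvae (log2 -0.03 ± 0.12, adjusted p = 0.93). Over the 21 nucleotide excision repair genes tested, 2 were higher and 2 lower, 9.52% each, beside 5.54% and 6.13% of all genes. The lower ones were the helicase xpd-1 at -0.32 and the single-strand binding gene rpa-2 at -0.25, and the median of the list was -0.0023. The 2 higher became 1 without UV-treated replicate 2 or untreated replicate 1, and the 2 lower became 1 without UV-treated replicate 2. Among 29 genes of the DNA damage checkpoint and apoptosis, 3 were higher (10.3%) and 0 were lower. The worm's ATR kinase gene atl-1 rose by 0.25, the DNA polymerase theta gene polq-1 by 0.24 and the checkpoint gene clk-2 by 0.27. The 3 became 1 without UV-treated replicate 1, 2 or 3, as polq-1 and clk-2 missed the threshold. The tankyrase-like gene tank-1, chosen after its values were seen, had 545, 520 and 556 CPM in UV-treated larvae and 352, 385 and 368 CPM in untreated larvae (log2 0.53 ± 0.04).

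Among the larger falls of genes with a symbol and a mean of at least 50 counts were genes of the apical extracellular matrix, the layer that lines the epidermis and tubes while a new cuticle is made. fbn-1, a fibrillin-like matrix gene needed at the molt, had 103, 97.0 and 111 CPM in UV-treated larvae and 320, 288 and 202 CPM in untreated larvae (log2 -1.41 ± 0.13, adjusted p = 3.6e-05). sym-1, a leucine-rich repeat gene that acts in the attachment of muscle to the cuticle, had 33.1, 32.5 and 37.6 CPM in UV-treated larvae and 97.2, 80.7 and 68.4 CPM in untreated larvae (log2 -1.29 ± 0.11, adjusted p = 3.2e-05). The mucin-like gene dpy-6 fell by 1.27 ± 0.11, and the matrix genes noah-1 and noah-2 fell by 0.97 ± 0.12 and 1.06 ± 0.15. let-653, a further gene of this layer named after its values were seen, fell by 1.13 ± 0.20. None of these genes had UV-treated and untreated libraries that overlapped, which the rule that named fbn-1, sym-1 and dpy-6 required. In fbn-1 and sym-1 untreated replicate 1 was the highest library and untreated replicate 3 the lowest of its group. fbn-1, sym-1 and dpy-6 each overlap another annotated gene, as do hrg-7, cdh-10, far-3, clec-78 and col-119 among the genes of largest change, and reads of the pair cannot be assigned with certainty because the strand setting of the library kit was not given in the sources used here.

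The lipocalin-related lpr genes, which serve the same matrix and were listed after their values were seen, had 5 of 7 members lower and 0 higher. lpr-6 fell by 1.30 ± 0.21, lpr-3 by 1.28 ± 0.20 and lpr-1 by 1.40 ± 0.30. Summed over the 7 genes the level was 96.0, 104 and 118 CPM in UV-treated larvae and 216, 157 and 159 CPM in untreated larvae. The collagens of the cuticle's furrows, listed in the same way, had 4 of 6 members lower. dpy-7 had 10.2, 9.39 and 14.3 CPM in UV-treated larvae and 33.1, 17.5 and 22.999 CPM in untreated larvae. dpy-2, dpy-9 and dpy-3 fell by 1.15, 1.09 and 1.07, and dpy-8 had -0.73 with an adjusted p of 0.067. The furrow collagens' sum of 55.1, 54.1 and 69.7 CPM in UV-treated larvae lay below that of 169, 75.8 and 122 CPM in untreated larvae, with a wide spread in the untreated group. Of 31 genes of the molting list, 12 were lower and 4 higher. The lower ones included the protease inhibitor gene mlt-11 (-0.65), the transcription factor gene myrf-1 (-0.38) and the metalloprotease gene nas-37 (-0.32), and the 4 higher ones were the endocytic receptor lrp-1 (0.43), the Patched-related ptr-18 (0.89), the dual oxidase bli-3 (0.24) and the protease dpy-31 (0.30). The 12 became 7 without UV-treated replicate 1 and 6 without UV-treated replicate 2. The list's summed level went the other way, with 4703, 4574 and 4594 CPM in UV-treated larvae and 4365, 4071 and 4085 CPM in untreated larvae. lrp-1 alone, with 3091, 2988 and 2897 CPM in UV-treated larvae and 2156, 2165 and 2231 CPM in untreated larvae, made up more than that gap.

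Cuticle collagens with a col number, most of which are made in bursts before a molt, did not follow the furrow collagens. Of 129 tested, 11 were higher and 3 were lower, with a median log2 of 0.20. The 11 became 6 without UV-treated replicate 3 and 17 without untreated replicate 1, and the 3 became 13 without untreated replicate 2. col-107 had 224, 248 and 313 CPM in UV-treated larvae and 170, 159 and 169 CPM in untreated larvae (log2 0.63 ± 0.10). col-119 had 20.7, 15.55 and 27.1 CPM in UV-treated larvae and 11.6, 4.36 and 6.89 CPM in untreated larvae (log2 1.40 ± 0.27, adjusted p = 0.006). col-119 is a collagen of adult cuticle, and the adult collagen col-19 and the yolk protein gene vit-5, both named after their values were seen, were uneven among these libraries. col-19 had 10.5, 10.1 and 20.2 CPM in UV-treated larvae and 15.0, 4.09 and 6.89 CPM in untreated larvae. The 6 vitellogenin genes, which adult hermaphrodites express in the intestine, summed to 119, 12.4 and 143 CPM in UV-treated larvae and to 30.1, 6.00 and 27.96 CPM in untreated larvae, so the groups overlapped, and they summed to 0.00 to 0.55 CPM at 0 h. The part of these adult transcripts in the value of col-119 was not tested. Of 49 abu and pqn genes, which make pharyngeal cuticle, 10 were higher and 2 lower, with pqn-62 at 0.63 and abu-14 at 0.95, and the 10 became 5 or 6 when any library but untreated replicate 2 was left out. Hedgehog-related genes, which have roles in epidermis and molting, had 11 of 63 higher, such as grl-25 (0.85) and ptr-13 (0.36), and 6 lower, led by wrt-10 (-1.22 ± 0.18). The 11 became 6 without UV-treated replicate 2 or 3, and the 6 became 3 without UV-treated replicate 1 or 2 or untreated replicate 3.

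**Figure D3:**
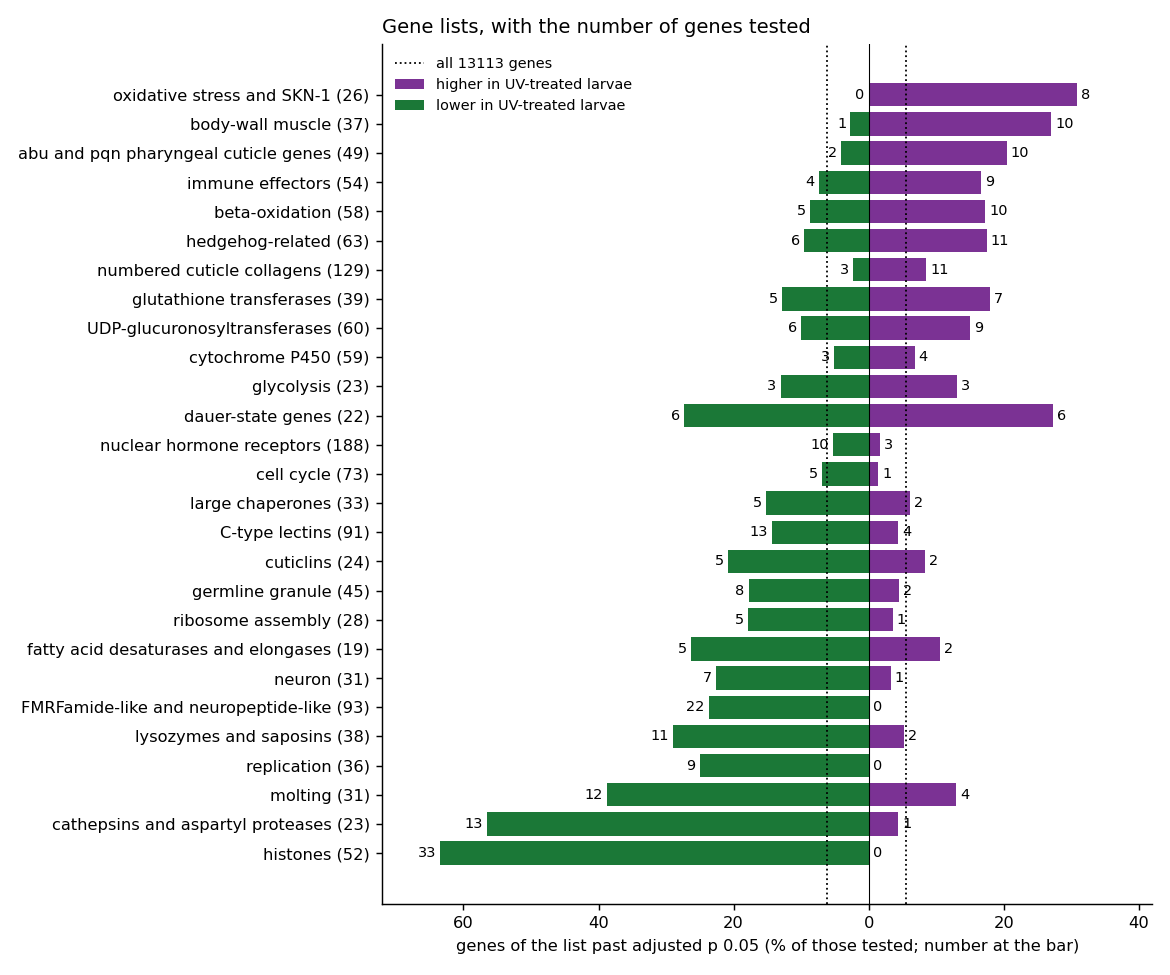
Share of the tested genes of each list (x, percent) that were higher (purple, to the right) or lower (green, to the left) in UV-treated larvae, with the number of genes at each bar and the number tested in parentheses, for lists with at least 10 genes tested and at least 6 past the threshold, leaving out those made after values were seen, such as the mitochondrial genome. Dotted lines mark the shares of all 13113 genes, 5.54% higher and 6.13% lower, and of the lists drawn that of histones, with 33 of 52 lower, lies farthest to the left.

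Among body-wall muscle genes more were higher than lower. Of 37 body-wall muscle genes, 10 were higher and 1 was lower, with a median log2 of 0.13. unc-22, the twitchin gene of the thick filament, had 2708, 2630 and 2585 CPM in UV-treated larvae and 1758, 1601 and 1808 CPM in untreated larvae (log2 0.59 ± 0.05, adjusted p = 2.3e-05). unc-68, the ryanodine receptor gene of the calcium store, rose by 0.60 ± 0.06, unc-89, the obscurin gene, by 0.36 ± 0.05, and ketn-1, the kettin gene, named after its values were seen, by 0.75 ± 0.06. The 1 lower gene was ttn-1, a titin gene, with 1300, 1368 and 1268 CPM in UV-treated larvae and 1985, 2053 and 2033 CPM in untreated larvae (log2 -0.65 ± 0.04, adjusted p = 1.6e-06). Summed over the list the level was 17228, 17102 and 17191 CPM in UV-treated larvae and 15460, 14227 and 15326 CPM in untreated larvae, without overlap. The count of 10 became 6 without UV-treated replicate 1 and 6 without UV-treated replicate 2, and myo-3 missed the threshold without UV-treated replicate 1 or 3. In the epidermis mup-4, a receptor of the fibres that link muscle to cuticle, rose by 0.78 ± 0.10, whereas sym-1, which acts in the same attachment, fell as given above. mup-4 was named after its values were seen, as was frm-1, a gene of the FERM family that ties membrane proteins to the cytoskeleton, with 1941, 1896 and 1862 CPM in UV-treated larvae and 1251, 1231 and 1201 CPM in untreated larvae (log2 0.61 ± 0.04, adjusted p = 1.6e-06).

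Basement membrane genes, listed after their values were seen, had 7 of 18 members lower and 0 higher, with a median log2 of -0.18. The laminin subunits lam-1 and epi-1 fell by 0.60 ± 0.06 and 0.46 ± 0.04, the hemicentin gene him-4 by 0.53 ± 0.04 and the spondin gene spon-1 by 0.89 ± 0.11. Their sum was 3982, 4041 and 4241 CPM in UV-treated larvae and 4886, 4672 and 4515 CPM in untreated larvae. The cadherin genes cdh-7 and cdh-10 fell by 1.16 ± 0.15 and 1.22 ± 0.16, and over the 11 cadherins, also listed later, 4 were lower and 1 higher. lon-1, a secreted protein gene that limits body length downstream of the worm's BMP-like signal, was named after its values were seen. It had 70.3, 75.7 and 72.0 CPM in UV-treated larvae and 149, 155 and 141 CPM in untreated larvae (log2 -1.05 ± 0.05, adjusted p = 9.4e-07), a 2.07-fold higher level in untreated larvae with little spread in either group.

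Most histone genes were lower. Of 52 tested, 33 were lower in UV-treated larvae and 0 were higher, with a median log2 of -0.42, beside 6.13% of all genes lower. Canonical histones package newly made DNA and are made as cells replicate. his-51 had 94.4, 91.4 and 94.6 CPM in UV-treated larvae and 135, 143 and 142 CPM in untreated larvae (log2 -0.61 ± 0.05, adjusted p = 1.6e-05). his-61 fell by 0.88 ± 0.10 and his-12 by 0.51 ± 0.06. The summed level was 3796, 3790 and 4093 CPM in UV-treated larvae and 4798, 4785 and 4490 CPM in untreated larvae, and at 0 h it was 4062, 3813 and 3925 CPM. The UV-treated libraries thus lay at the level of dauer larvae, and the untreated ones above it. Many histone genes have near-identical copies among which the quantification can divide reads, so the value of a single member is uncertain. How the RNA was selected before sequencing, which bears on histone messages without a poly(A) tail, was not given in the sources used here.

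Replication genes shared the direction with smaller differences. Of 36 tested, 9 were lower and 0 higher, with a median log2 of -0.16. The DNA polymerase alpha gene pola-1 had 101, 99.1 and 102 CPM in UV-treated larvae and 131, 126 and 125 CPM in untreated larvae (log2 -0.36 ± 0.05), the helicase subunit gene mcm-5 fell by 0.32 ± 0.06 and the ribonucleotide reductase gene rnr-1 by 0.31 ± 0.06. The 9 became 4 without UV-treated replicate 1, UV-treated replicate 2 or untreated replicate 1. Summed replication genes stood at 1645, 1685 and 1689 CPM in UV-treated larvae and at 1899, 1885 and 1822 CPM in untreated larvae, with no overlap. Cell cycle genes were near the share of all genes, with 5 of 73 lower and 1 higher, and the 5 became 1 without UV-treated replicate 2, 3 without untreated replicate 1 and 2 without untreated replicate 2. Of 45 germline granule and meiotic genes 8 were lower, by 0.24 to 0.59, and 2 higher, and the 8 became 4 or 5 when any library but untreated replicate 2 or UV-treated replicate 3 was left out. None of 24 sperm genes passed.

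Proteases of digestion were lower in most members. Of 23 cathepsin and aspartyl protease genes, which break down protein in the gut lumen and lysosomes, 13 were lower and 1 was higher, with a median log2 of -0.34. cpr-1, a cathepsin B-like gene of the gut, had 74.7, 78.3 and 101 CPM in UV-treated larvae and 172, 157.9 and 146 CPM in untreated larvae (log2 -0.94 ± 0.10, adjusted p = 9.7e-05). asp-14 fell by 0.79 ± 0.08 and asp-2 by 0.73 ± 0.10. The list's sum of 9763, 9804 and 10442 CPM in UV-treated larvae overlapped that of 11317, 11674 and 10338 CPM in untreated larvae in 1 pair of libraries. Serine carboxypeptidases, listed later, had 5 of 7 lower, and this became 3 without UV-treated replicate 1, UV-treated replicate 3 or untreated replicate 1 and 2 without UV-treated replicate 2. hrg-7, an aspartic protease-like gene with a role in heme signalling between tissues, had 26.6, 27.03 and 24.8 CPM in UV-treated larvae and 77.3, 71.7 and 50.95 CPM in untreated larvae (log2 -1.38 ± 0.13). The intestinal intermediate filament gene ifc-1 fell by 1.32 ± 0.10, while act-5 and ifb-2, which also mark the gut, had the small values given above. Other gut lists were divided, with 2 higher and 3 lower among 16 pharynx genes and 3 higher and 2 lower among 19 genes listed under intestine structure. The largest rise of the intestine list, 0.73, was that of cdr-4, of the metal-responsive cdr family. The lipase list had 2 higher and 1 lower among 26 genes. Its largest rise, 2.65, was that of the yolk protein gene vit-5, which missed the threshold in 9 of 15 alternatives.

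Lipid and nucleotide metabolism had changes in both directions. far-3, which encodes a secreted protein that binds fatty acids and retinol, had 352, 331 and 390 CPM in UV-treated larvae and 173, 172 and 176 CPM in untreated larvae (log2 1.02 ± 0.06, adjusted p = 1.6e-06). Its relative far-2, named with the family after its values were seen, had 113, 117 and 150 CPM in UV-treated larvae and 291, 250 and 231 CPM in untreated larvae (log2 -1.05 ± 0.10, adjusted p = 6.4e-05). Both differences were about 2-fold and without overlap, which the rule that named far-3 required. Of 58 beta-oxidation genes 10 were higher, led by cpt-3, a carnitine palmitoyltransferase gene (1.01 ± 0.12), and 5 were lower, led by kat-1, a thiolase gene (-0.47 ± 0.07), and the 5 became 3 when either of UV-treated replicates 1 and 2 or of untreated replicates 1 and 3 was left out. The fatty acid desaturase gene fat-5 rose by 0.56 ± 0.06 and the elongase gene elo-2 fell by 0.71 ± 0.10. upb-1, which encodes beta-ureidopropionase of pyrimidine breakdown and was named after its values were seen, had 68.0, 70.5 and 68.0 CPM in UV-treated larvae and 125, 137 and 132 CPM in untreated larvae (log2 -0.95 ± 0.05, adjusted p = 1.4e-06). Transthyretin-like genes, a nematode family listed later, had 13 of 47 higher and 3 lower, with ttr-15 at 0.58 ± 0.04. The 13 became 8 without UV-treated replicate 1, and the 3 became 1 without UV-treated replicate 1, untreated replicate 1 or untreated replicate 2.

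Transcripts of the mitochondrial genome were lower in UV-treated larvae in 9 of the 11 genes tested, and 0 were higher. COX2, a subunit of cytochrome c oxidase, had 982, 984 and 826 CPM in UV-treated larvae and 1458, 1486 and 1533 CPM in untreated larvae (log2 -0.71 ± 0.06, adjusted p = 2.3e-05). ND5, a subunit of complex I, fell by 0.77 ± 0.07 and COX1 by 0.45 ± 0.06. Summed over the mitochondrial genome the level was 12482, 12310 and 10546 CPM in UV-treated larvae and 15037, 15353 and 16302 CPM in untreated larvae, with UV-treated replicate 3 the lowest. This list was made after values were seen. Respiratory chain genes of the nucleus had 5 of 49 lower, by 0.14 to 0.44, and 0 higher. The 5 became 0 without UV-treated replicate 2, 1 without UV-treated replicate 1 or untreated replicate 1, 2 without UV-treated replicate 3 or untreated replicate 3 and 3 without untreated replicate 2. Mitochondrial ribosome genes had 2 of 65 lower, which became 0 or 1 when any library but untreated replicate 3 was left out. By counts past the threshold, most large cellular machines stood near or below the background. Ribosome assembly genes had 5 of 28 lower (17.9%) and 1 higher, and the 5 fell to 1 in some alternatives. Passing or not, 73 of 77 cytosolic ribosome, 51 of 65 mitochondrial ribosome and 42 of 49 nuclear respiratory chain genes were below 0. Their medians were -0.068, -0.11 and -0.088. Below 0 were also 15 of 33 proteasome and 32 of 57 splicing factor genes. None of 33 proteasome genes and 4 of 77 cytosolic ribosome genes passed, these 4 all lower, by 0.12 to 0.27, and 1 of 57 splicing factor genes and 5 of 67 genes of RNA polymerase II and elongation passed. The 4 ribosome genes became 1 without UV-treated replicate 1 or 2 or untreated replicate 1, 2 without untreated replicate 2, 11 without UV-treated replicate 3 and 7 without untreated replicate 3, and the 2 lower polymerase and elongation genes became 1 when any library but untreated replicate 2 was left out. ama-1, the large subunit of RNA polymerase II, rose by 0.20 ± 0.04.

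Neuropeptide genes were lower or did not pass. Of 93 FMRFamide-like and neuropeptide-like genes, 22 were lower and 0 were higher, with a median log2 of -0.19. flp-18 had 91.8, 91.0 and 97.1 CPM in UV-treated larvae and 113, 120 and 123 CPM in untreated larvae (log2 -0.37 ± 0.06, adjusted p = 0.0011), flp-33 fell by 0.76 ± 0.10 and nlp-20 by 0.78 ± 0.09. The sum was 2534, 2610 and 2643 CPM in UV-treated larvae and 2847, 2944 and 2879 CPM in untreated larvae, without overlap. The 22 became 11 without UV-treated replicate 2 and 14 without UV-treated replicate 1, UV-treated replicate 3 or untreated replicate 2. The processing enzyme genes egl-3 and egl-21, which cut and trim neuropeptide precursors, fell by 0.28 and 0.20, and the dense-core vesicle gene ida-1 fell by 0.27. Over the neuron list, 7 of 31 were lower and 1 was higher, and without untreated replicate 2 the 7 became 4. Insulin-like peptide genes had 5 of 22 lower and 0 higher, among them ins-28 (-0.66 ± 0.12), and only 1 to 3 were left when any library but untreated replicate 2 was left out.

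**Figure D4:**
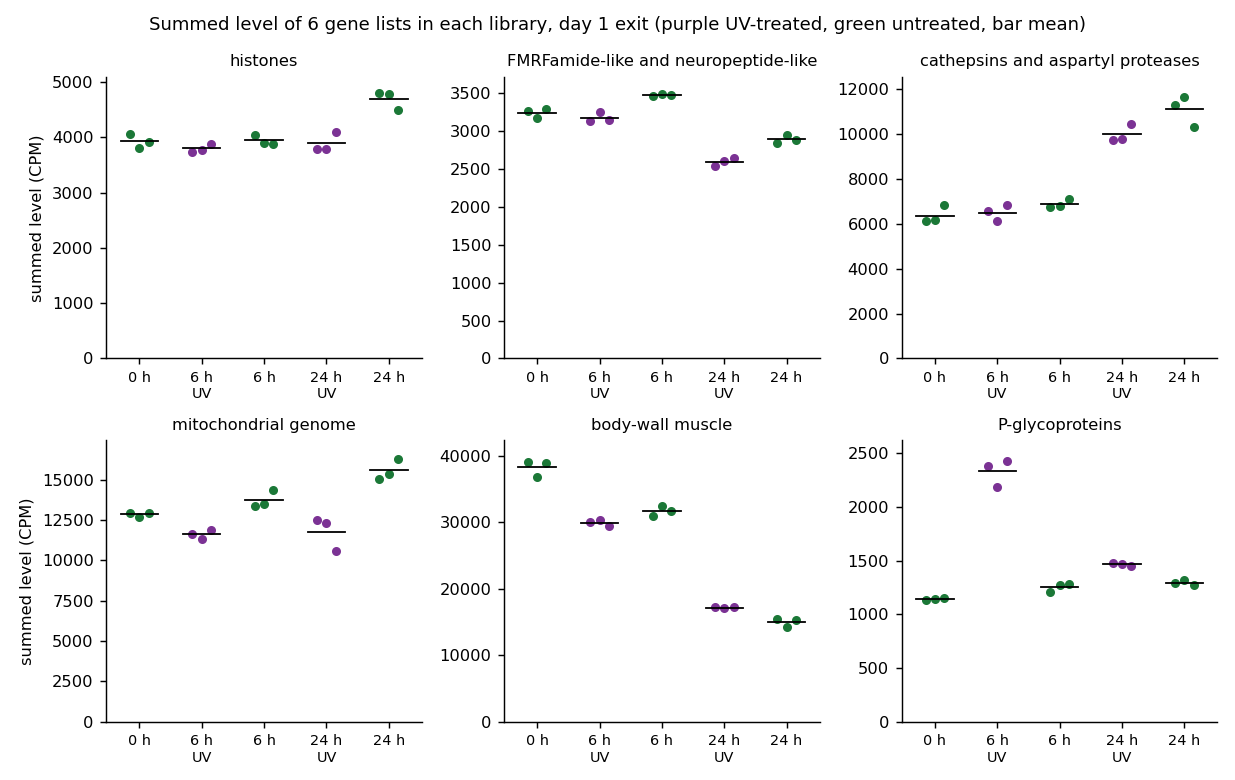
Summed level in CPM (y) of 6 gene lists in single libraries of day 1 exit at 0 h, 6 h and 24 h (x), UV-treated larvae in purple left of untreated larvae in green, with the bar at the mean of 3. At 24 h the UV-treated libraries lie below the untreated ones for histones, neuropeptides and the mitochondrial genome, above them for body-wall muscle and P-glycoproteins, and overlap them for cathepsins and aspartyl proteases.

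The same treatment had been sampled 6 h into exit, which asked how the effect moved with the hour. In a fit of the 12 libraries, with 13903 genes tested, 3860 genes (27.8%) differed between UV-treated and untreated larvae at 6 h, 1985 higher and 1875 lower. The effect at 24 h differed from that at 6 h in 1820 genes (13.1%), with 915 (6.58%) above and 905 (6.51%) below by the interaction term. Of the 1530 genes past the threshold at 24 h, 553 differed between the hours. Of the same 1530 genes, 335 were higher and 309 lower at both hours, and 109 passed with opposite signs.

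The P-glycoproteins had a median log2 of 0.57 at 6 h and 0.02 at 24 h, and the effect at 24 h was below that at 6 h in 7 of the 14 and above it in 1. pgp-8 stood at 220 ± 16 CPM in UV-treated larvae and 13.4 ± 0.41 CPM in untreated larvae at 6 h (SD, n = 3 each), a log2 difference of 4.03 ± 0.09, and the effect at 24 h was lower by 2.27. gst-24 had 40.2 ± 7.2 CPM in UV-treated larvae and 2.74 ± 0.23 CPM in untreated larvae at 6 h, and numr-1 had 230 ± 16 CPM in UV-treated larvae and 51.3 ± 4.1 CPM in untreated larvae (SD, n = 3 each). Their effects at 24 h were lower by 1.76 and 1.07. Summed over the P-glycoproteins, UV-treated larvae had 2382, 2187 and 2428 CPM and untreated larvae 1206, 1271 and 1286 CPM at 6 h. The other detoxification lists did not share this pattern. Glutathione S-transferases had a median of 0.04 at 6 h and 0.18 at 24 h, with 5 effects above and 2 below those at 6 h, and the oxidative stress list a median of 0.05 at 6 h and 0.10 at 24 h, with 6 above and 3 below. Of the cytochrome P450 genes 11 were above and 3 below, and of the UDP-glucuronosyltransferases 9 were above and 10 below. csb-1 rose by 1.08 ± 0.08 at 6 h, and its effect at 24 h was lower by 0.60.

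Some of the named dauer and matrix genes had the larger effect at 24 h. H39E23.3, daf-42, fbn-1, dpy-6 and cdh-10 were named for large changes at 24 h or after values were seen. The furrow collagen and lpr lists were also made after values were seen. The hour difference holds the same 24 h libraries, so this selection favours a larger effect at 24 h. H39E23.3 had 354 ± 60 CPM in UV-treated larvae and 231 ± 13 CPM in untreated larvae at 6 h (SD, n = 3 each), when the log2 difference was 0.61, and its effect at 24 h was higher by 2.56. daf-42 had 174 ± 2.1 CPM in UV-treated larvae and 104 ± 2.5 CPM in untreated larvae at 6 h (SD, n = 3 each), and its effect at 24 h was higher by 1.16. fbn-1 had -0.28 at 6 h with an adjusted p of 0.077, and its effect at 24 h was lower by 1.12. For dpy-6 and cdh-10 the differences between hours were -1.14 and -1.13. Over the lists, none of the 6 furrow collagens and 1 of the 7 lpr genes passed for a difference between hours, but lists this short can yield few calls. Their medians were -0.68 and -0.37 at 6 h and -1.12 and -0.95 at 24 h. The molting list had 4 effects above and 6 below those at 6 h, with a median of -0.0036 at 6 h and -0.14 at 24 h. The dauer-state list had 6 of 22 above and 1 below, beside 6.58% and 6.51% of all genes. Body-shape collagens had a median of -0.69 at 6 h and 0.02 at 24 h, with 5 above and 0 below. A smaller set turned round. ifas-1 was lower in UV-treated larvae at 6 h, by 0.95, and higher at 24 h, by 1.32 ± 0.15, with a difference between hours of 2.29. The carboxylesterase gene cest-30 fell by 1.20 at 6 h and rose by 0.96 at 24 h. daf-2 fell by 0.44 at 6 h and had 0.00 at 24 h, with a difference of 0.45 between the hours.

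**Figure D5:**
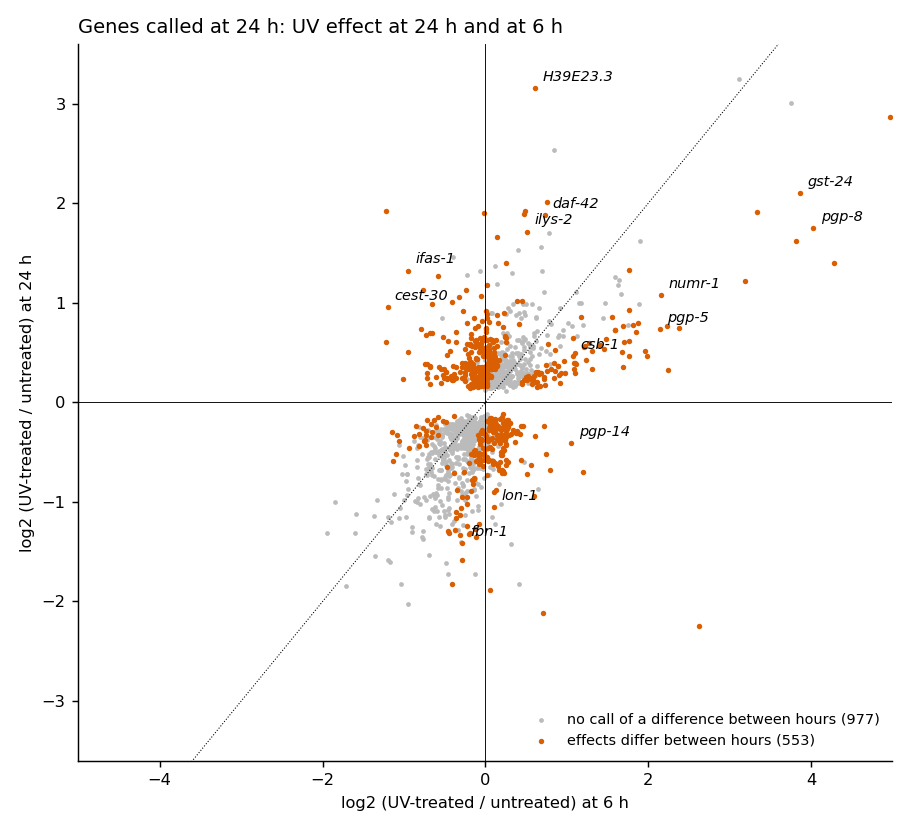
UV effect at 24 h (y, log2) against UV effect at 6 h (x, log2) of the 1530 genes past the threshold at 24 h. The 553 orange points differed between the hours by the interaction term, the 977 grey points did not pass it, and 2 genes lie outside the range drawn.

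A second point of reference was exit on day 4. These larvae had also received UV on dauer day 1 but stayed in dauer until day 4 before exit, so UV lay 3 days further back, and they were again sampled 24 h later. Only 28 of 13409 genes (0.209%) differed between UV-treated and untreated larvae, 24 higher and 4 lower. The effects on day 1 and day 4 differed in 513 genes (3.83%) by the interaction term, 225 (1.68%) above and 288 (2.15%) below. The day 4 libraries were shallower, at 2434018 to 4121816 counts in UV-treated larvae and 3621122 to 4524995 in untreated larvae. The count of 513 rested on single libraries, with 245 without untreated day 1 replicate 1, 254 without UV-treated day 1 replicate 1, 280 without untreated day 4 replicate 3, 304 without UV-treated day 1 replicate 2, 311 without untreated day 1 replicate 2 and 325 without UV-treated day 4 replicate 2. The genes below were named from their day 1 values, which favours a larger effect on day 1. fbn-1 had 331 ± 91 CPM in UV-treated larvae and 299 ± 61 CPM in untreated larvae on day 4 (SD, n = 3 each), and its effect on day 1 was lower by 1.54. pgp-8 had 13.6 CPM in UV-treated larvae and 16.2 CPM in untreated larvae on day 4, and its effect on day 1 was higher by 2.01. H39E23.3 remained higher on day 4, with 55.9 CPM in UV-treated larvae and 14.1 CPM in untreated larvae (log2 1.99, adjusted p = 3.3e-06), and the day 1 effect was above it by 1.18. daf-42 was higher on day 4 too, with 12.9 CPM in UV-treated larvae and 0.838 CPM in untreated larvae (adjusted p = 0.001).

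The untreated day 4 libraries, none of which entered the day 1 comparison, also gave each gene's direction in day 4 exit without UV. This reading was chosen after the data were seen. Exit on day 1 may take another direction. Body-shape collagens summed to 3185 ± 229 CPM at 0 h and 474 ± 108 CPM at 24 h of untreated day 1 exit (SD, n = 3 each). At 24 h of untreated day 4 exit the same list summed to 7179 ± 165 CPM (SD, n = 3), and its day 4 sum at 0 h is not given here. The single collagen rol-6 rose in untreated day 4 exit, from 1.20 ± 0.82 CPM at 0 h to 393 ± 40 CPM at 24 h (SD, n = 3 each). Between 24 h and 0 h of day 4 exit, 12517 genes were tested, 4142 (33.1%) were higher and 3767 (30.1%) lower at 24 h. Of 784 genes lower in UV-treated larvae on day 1 that were tested there, 557 (71.0%) were higher at 24 h and 83 (10.6%) lower, with a median log2 of 0.91. Of 708 genes higher in UV-treated larvae on day 1, 240 (33.9%) were higher at 24 h and 322 (45.5%) lower, with a median of -0.17. hrg-7 had 568 ± 49 CPM at 24 h and 21.7 ± 1.5 CPM at 0 h of day 4 exit, cpr-1 had 555 ± 58 CPM at 24 h and 26.9 ± 7.4 CPM at 0 h, and lon-1 had 134 ± 2.6 CPM at 24 h and 10.03 ± 2.9 CPM at 0 h (SD, n = 3 each). D1086.9 ran the other way, with 21.5 ± 3.9 CPM at 24 h and 3143 ± 214 CPM at 0 h (SD, n = 3 each). far-3 was one of the 240 genes higher in UV-treated larvae and also higher at 24 h of day 4 exit, with 168 ± 4.5 CPM at 24 h and 48.1 ± 13 CPM at 0 h.

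The length of genes was examined because UV lesions block elongating polymerase, so that a longer gene offers more places to be hit. The mean log2 level of the longest 20% of genes minus that of the shortest 20% was 1.32 ± 0.055 in UV-treated larvae and 1.32 ± 0.057 in untreated larvae (SD, n = 3 each). The difference was 0.0017 (exact two-sided permutation test, p = 1, where 3 against 3 libraries allow no p under 0.1). The median span from start to end of the gene was 2952 bp for genes higher and 2551.5 bp for genes lower in UV-treated larvae, and 2588 bp for all genes tested. Long genes stood at both ends, since the long muscle genes unc-22 and ketn-1 rose and the still longer ttn-1 fell.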

How the data were processed

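RNA of whole worms was sequenced from 3 UV-treated and 3 untreated day 1 exit samples at 24 h. The authors filtered reads with fastp, quantified transcripts of the WBPS15 gene set with Salmon, using the genome as a decoy, and combined them per gene with tximport. The deposited values are estimated counts, which were rounded to whole numbers here. Tool versions, kit strand and RNA selection were not given in the sources used here. Genes were matched by identifier to WBcel235 (19897 of 19909), and names came from these tables.

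A gene entered a fit if 3 or more of its libraries held 10 or more counts, and was tested with edgeR 4.0.16 (R 4.3.3, limma 3.58.1), TMM and the quasi-likelihood test, two-sided, adjusted p under 0.05. The 24 h comparison used its 6 libraries, and each interaction used 12. Standard errors are the log2 difference over the root of F. Lists were 51, with 9 added after values were seen. Named genes were xpa-1, xpc-1, csb-1 and daf-2, the 14 largest rises and 14 largest falls past the threshold with a gene symbol, a mean of at least 50 counts and libraries that did not overlap, up to 3 members of each list in its main direction and 1 in the other, and up to 6 genes per interaction and direction under the same conditions. Others are named as chosen after their values were seen. Members and lists were chosen with earlier results of these data known. Replicates of the 2 groups differed by more than sampling noise, with a chi-square per gene of 1.99 to 3.27, and the sources call them biological, which is all that is known of their independence.

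Alternatives were RLE factors, no filter or filterByExpr, DESeq2 1.42.0, a replicate block, each library left out, a threshold of 0.01, all 54 libraries in 1 fit, thinned counts and an absolute log2 of at least 1, and, added after the data were seen, the 15 day 1 libraries in 1 fit and limma voom with quality weights. The scripts were checked on simulated data.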

Additional observations from a re-analysis of the deposited data

Results flagged for a closer look

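The UV effect at 24 h differed from that at 6 h of day 1 exit in 1820 genes by the interaction term, and the UV effect at 24 h of day 1 exit differed from that at 24 h of day 4 exit in 513 genes. The values below are log2 differences between these effects for genes the text or its rule names, all past an adjusted p of 0.05 in edgeR. Many of these genes were named from the same day 1 libraries at 24 h, which favours a larger effect there. Some of these calls depended on the processing. The hour difference missed the threshold in 14 of 17 alternatives for pgp-7, 10 for col-119, 6 for clec-78 and 3 for lpr-3. The day difference missed it in 9 of 16 alternatives for srd-53, and in 5 of 17 for mtre-1 and 3 of 17 for col-96. For pgp-8 and gst-24 both differences passed in all alternatives.

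The effect at 24 h was below that at 6 h for the adult collagens col-119 (-2.86) and col-19 (-2.47). At 6 h col-119 ran from 2.28 to 8.66 CPM in UV-treated larvae and from 0.189 to 0.337 CPM in untreated larvae, and the vitellogenin genes summed to 1.47, 0.80 and 65.5 CPM in UV-treated larvae and to 0.40 to 0.47 CPM in untreated larvae. The part of adult transcripts in these values was not tested. The same sign was found for pgp-8 (-2.27), pgp-6 (-1.91), gst-24 (-1.76), the poly(ADP-ribose) glycohydrolase gene parg-2 (-1.74), numr-1 (-1.07), fipr-26 (-0.83), csb-1 (-0.60) and pgp-7 (-0.43), which were higher in UV-treated larvae at 6 h. Among genes that were lower at 24 h it was found for dpy-6 (-1.14), cdh-10 (-1.13), fbn-1 (-1.12), ifc-1 (-1.11), fkb-5 (-1.01), lpr-3 (-0.90), sym-1 (-0.82) and cdh-7 (-0.80).

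The effect at 24 h was above that at 6 h for H39E23.3 (2.56), ifas-1 (2.29), cest-30 (2.17), pals-28 (2.06), scl-11 (1.99), scl-13 (1.89), col-90 (1.84), D1086.9 (1.43), cpt-3 (1.43), ilys-2 (1.21), daf-42 (1.16), col-96 (0.77), far-3 (0.64), clec-78 (0.57) and daf-2 (0.45). For scl-11, scl-13 and pals-28, UV-treated larvae were lower at 6 h and did not pass the threshold at 24 h.

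Between the days, the effect on day 1 was below that on day 4 for col-43 (-4.12), cut-1 (-3.65), col-84 (-3.603), mtre-1 (-2.32) and col-158 (-1.72). On day 4 col-43 ran from 34.7 to 41.6 CPM in UV-treated larvae and from 1.29 to 1.94 CPM in untreated larvae, and cut-1 from 5.37 to 7.65 CPM in UV-treated larvae and from 0.00 to 0.646 CPM in untreated larvae. It was also below for lpr-3 (-1.66), ifc-1 (-1.58), exh-1 (-1.57), fbn-1 (-1.54), dpy-6 (-1.52), sym-1 (-1.43), hrg-7 (-1.38), lpr-6 (-1.36), fkb-5 (-1.36), cdh-7 (-1.17) and cdh-10 (-1.17), which were lower in UV-treated larvae on day 1. It was above for gst-24 (2.28), D1086.9 (2.19), pgp-8 (2.01), pgp-7 (1.73), numr-1 (1.59), col-96 (1.58), srd-53 (1.53), ilys-2 (1.43), cpt-3 (1.26), H39E23.3 (1.18), fipr-22 (1.11), clec-78 (0.87), far-3 (0.86) and pgp-6 (0.72).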

How the results depend on the processing

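The 24 h comparison gave 688 genes (321 higher, 367 lower) at an adjusted p under 0.01, 1010 (495 higher, 515 lower) with DESeq2 and 130 (50 higher, 80 lower) with an absolute log2 of at least 1. Leaving out single libraries gave 930 to 1286 genes, 447 to 595 higher and 483 to 691 lower. RLE factors, no filter, filterByExpr, thinning, all 54 libraries, the 15 day 1 libraries and voom weights gave 1139 to 1837, within 1.5 times of 1530, and the 15 day 1 libraries called 1042 higher and 795 lower. The hour difference gave 887 genes (427 above, 460 below) at 0.01 and 554 below with all 54 libraries in 1 fit. The day difference gave 141 (62 above, 79 below) at 0.01, and 245 to 520, with 105 to 219 above and 140 to 301 below, when single libraries were left out.

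With the replicate number as a block, the 24 h comparison gave 1088 genes, the hour difference 1733 and the day difference 333 (147 above, 186 below). At 24 h of day 1 exit, deviations of same-numbered libraries had correlations of -0.15, 0.063 and -0.0087. Those of differently numbered libraries ran from -0.13 to 0.15. With 3 libraries per group these values cannot tell whether same-numbered samples were prepared together.

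Of the 188 named genes past the threshold at 24 h, 122 stayed past it in all 15 alternatives at that threshold, and of the 28 with the largest changes 27 did, the exception being col-119 with all 54 libraries in 1 fit. unc-54 was lost in that fit, and csb-1 and myo-3 with DESeq2. With 1 library left out, the log2 difference of genes near zero changed sign. Over all 15 alternatives it ran from -0.093 to 0.076 for xpa-1, -0.020 to 0.039 for daf-2, -0.064 to 0.25 for scl-13 and -0.023 to 0.28 for col-84. It ran from -0.052 to 0.014 for myo-2, -0.089 to 0.047 for act-5, -0.011 to 0.042 for ifb-2 and -0.10 to 0.19 for rab-3. None of these passed the threshold. The hour difference of exh-1 ran from -0.79 to 0.62 over its 17 alternatives. The cause of these shifts was not tested. The length contrast differed by -0.025 to 0.057 over all alternatives. In the simulated data the 24 h comparison recovered 40 of 67 changes of 1.5-fold, 45 of 67 of 2-fold and 63 of 66 of 4-fold. The day difference recovered 30 of 67 changes of 2-fold. Unchanged genes gave 11 calls in the simulated 24 h comparison and 10 in the simulated day difference. Far fewer genes were changed there than the 1530 called in the data. The adjusted p is stricter when fewer genes change, so these shares may understate recovery in the data. In this setting changes of 2-fold could miss the threshold, so a gene that did not pass may still have changed.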
